A study of Mus musculus with 25 samples.

Results

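Total RNA was compared between 8-cell mouse embryos treated with the Dot1L inhibitor SGC0946 and embryos given the solvent DMSO. The comparison used 4 of the 25 samples of the series, chosen by their treatment label: 2 pools with DMSO and 2 with SGC0946, with every gene of the count table as a candidate. The table listed 24062 genes, and 14351 passed the filter on low counts and were tested. All 4 pools were wild type, came from the cross labelled B6D2F1 x Cast/EiJ, and were collected 56 hours after fertilization, each from 30 to 35 embryos lysed together. The labels give neither the dose of SGC0946 nor when it was added, and nothing says that the pools came from separate matings or days, so the tests measure the spread between these pools, which may be technical.

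DOT1L places methyl groups on lysine 79 of histone H3 (H3K79), a mark found over the bodies of transcribed genes, and it works in complexes with proteins of the transcription elongation machinery. SGC0946 is a small molecule that occupies the pocket for the methyl donor and blocks the enzyme without removing the protein. At the 8-cell stage the mouse embryo transcribes its own genome, compacts, acquires polarity and expresses the regulators that later mark the inner cell mass.

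The library totals ranged from 24950199 to 32479590 counts, and the ribosomal RNA precursor Rn45s took 11.9 to 13.8% of each. Inhibitor replicate 1 stood apart from the other pools. Over the 7557 genes whose mean level reached 10 CPM (counts scaled to a common library size), the median absolute log2 difference was 0.19 between the DMSO pools and 0.22 between the inhibitor pools. It was 0.28 between inhibitor replicate 1 and either DMSO pool, and 0.19 between inhibitor replicate 2 and DMSO replicate 2. Inhibitor replicate 2 was therefore nearer to a DMSO pool than to its own replicate. The labelled stage was checked against 10 markers of the 8-cell embryo, which were all measured, among them Pou5f1 at 458 to 716 CPM and Dppa3 at 653 to 981 CPM. Of these 10, 0 were higher and 5 were lower with the inhibitor at an unadjusted p under 0.05, against 4.1 and 4.05% of all tested genes. The 5 were Pou5f1, Dppa3, Klf5, Tdgf1 and Sall4, which are also in the naive pluripotency list. The median log2 fold change of the 10 was −0.23. In the highest of 5 groups of tested genes by mean level, 11.4% were lower. Markers of other cells that could be collected with embryos were low: the summed level of cumulus and granulosa markers was 41.3 to 49.2 CPM and came mostly from Amhr2, and that of sperm, oviduct, blood and fibroblast markers was 6.0 CPM or less in every pool. In pooled embryos, fewer cells of a type and less RNA per cell cannot be told apart.

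No gene differed between SGC0946 and DMSO in edgeR's quasi-likelihood test with Benjamini-Hochberg adjustment at 0.05 (0 of 14351, 0%), and the smallest adjusted p was 0.203. At an unadjusted p under 0.05, 588 genes were higher with the inhibitor (4.1%) and 581 were lower (4.05%), together 8.15% of the tested genes. DESeq2 called 125 genes at an adjusted p under 0.05, 37 higher and 88 lower. These were 0.691%, 0.204% and 0.486% of the 18094 genes to which it gave a p-value. It gave no adjusted p to 10341 of those genes, which could not be called. limma-voom called 55 genes, and edgeR called 23 when only genes with at least 10 counts in every library were tested. Without inhibitor replicate 1, edgeR called 4 genes, all lower: Calcoco2, Lars2, Rpl10 and Rn45s. Without inhibitor replicate 2, it called 144. DESeq2, limma-voom and the stricter edgeR filter had 22 calls in common, 7 higher and 15 lower. Since the main test called nothing, differences below are given as higher or lower levels with their standard errors, and counts of listed genes refer to the unadjusted p. The gene lists were chosen with earlier results of these data known. Their counts beside the shares of all tested genes are a description and not a test.

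The 7 genes that were higher by all 3 of those analyses were Pmaip1, Trim11, Bcor, Arid4a, Zfc3h1, Fnip1 and Fnip2. Pmaip1 (NOXA, a BH3-only protein that promotes apoptosis and is a classic p53 target) was at 6.0 and 5.24 CPM in the DMSO pools and at 19.1 and 24.0 CPM in the inhibitor pools. Both inhibitor pools lay above both DMSO pools, the log2 fold change was 1.94 (SE 0.35), and DESeq2 gave an adjusted p of 0.000454. Trim11, an E3 ubiquitin ligase, was at 6.45 and 10.9 CPM with DMSO and 31.6 and 23.6 CPM with the inhibitor, a log2 fold change of 1.67 (SE 0.34). Bcor, the BCL6 corepressor and a subunit of a variant Polycomb complex, was at 64.5 and 63.2 CPM with DMSO and at 158 and 99.1 CPM with the inhibitor. The size of the Bcor difference depended on inhibitor replicate 1, since its log2 fold change of 1.01 (SE 0.21) was 0.63 without that pool. Arid4a, which binds the retinoblastoma protein and histone deacetylase complexes, had a log2 fold change of 1.08 (SE 0.22), and Zfc3h1, part of a nuclear RNA surveillance complex, had 0.70 (SE 0.15). Fnip1 and Fnip2 are described with their pathway.

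Another 15 genes were lower by the same 3 analyses. Most of them had a smaller difference without inhibitor replicate 1 than without inhibitor replicate 2, except Calcoco2, Rpl10, Nedd4l and Grin1. The log2 fold change of Fubp1 was −0.56 without inhibitor replicate 1 and −1.24 without inhibitor replicate 2. For Jarid2 these values were −0.56 and −1.08, and for Socs3 −0.81 and −1.56. Tfcp2l1, a transcription factor of naive pluripotency, was at 420 and 359 CPM with DMSO and 191 and 231 CPM with the inhibitor. The groups did not overlap, the log2 fold change was −0.89 (SE 0.14), and the DESeq2 adjusted p was 9.13e-06. Jarid2, an accessory subunit of the Polycomb complex that methylates lysine 27 of histone H3, was at 1030 and 844 CPM with DMSO and at 443 and 634 CPM with the inhibitor (log2 fold change −0.80, SE 0.16). Zan, which encodes the sperm protein zonadhesin, was at 59.1 and 57.1 CPM with DMSO and at 19.1 and 27.4 CPM with the inhibitor. Grin1, an NMDA receptor subunit, was at 82.1 and 88.7 CPM with DMSO and at 44.0 and 43.4 CPM with the inhibitor, so its pools agreed closely within each group (log2 fold change −0.97, SE 0.19). The remaining lower genes were Calcoco2, Socs3, Rpl10 and Esrrb, given with their lists, together with Slc30a2 (a zinc transporter, −1.51, SE 0.31), Mt2 (a metallothionein, −0.62, SE 0.13), Cul5 (a cullin ubiquitin ligase scaffold, −0.61, SE 0.13), Nedd4l (a ubiquitin ligase, −0.68, SE 0.14), Rreb1 (a zinc finger transcription factor, −0.65, SE 0.14), Fubp1 (a single-strand DNA binding protein, −0.86, SE 0.19) and 2810474O19Rik (−0.72, SE 0.14).

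**Figure D1:**
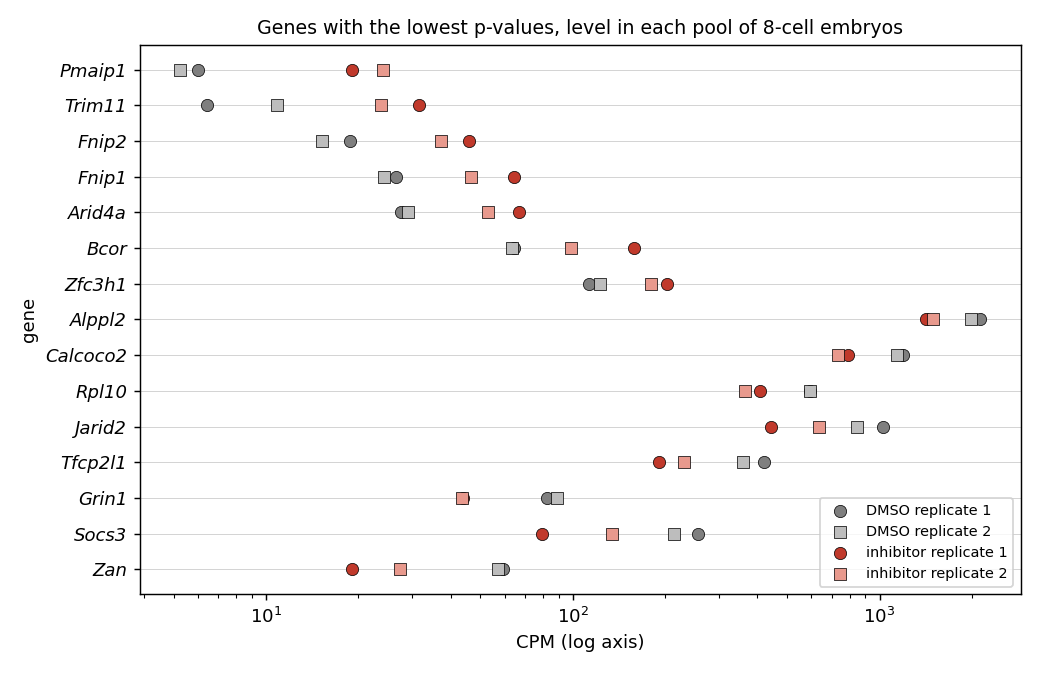
Level in CPM (log axis) of genes with the lowest p-values in each direction, with 1 point per pool (grey for DMSO, red for SGC0946, circles for replicate 1 and squares for replicate 2). For every gene drawn the inhibitor pools lie on one side of the DMSO pools, which the choice of genes required.

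The higher and lower genes differed in their level. Genes higher at an unadjusted p under 0.05 had a median mean level of 18.2 CPM and a median log2 fold change of 0.95, while lower genes had 91.8 CPM and −0.53. With tested genes split into 5 groups by the mean of all 4 pools, a grouping chosen after seeing the data, the share of lower genes was 0.700% in the lowest group and 11.4% in the highest. The median log2 fold change went from 0.15 to −0.08 over the same groups. Both DMSO pools had 0 counts for 52 of the 14351 tested genes, and both inhibitor pools for 21. Such genes passed the filter only through the other group, and inhibitor replicate 2 was the largest library. The 52 and 21 therefore do not compare the groups.

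**Figure D2:**
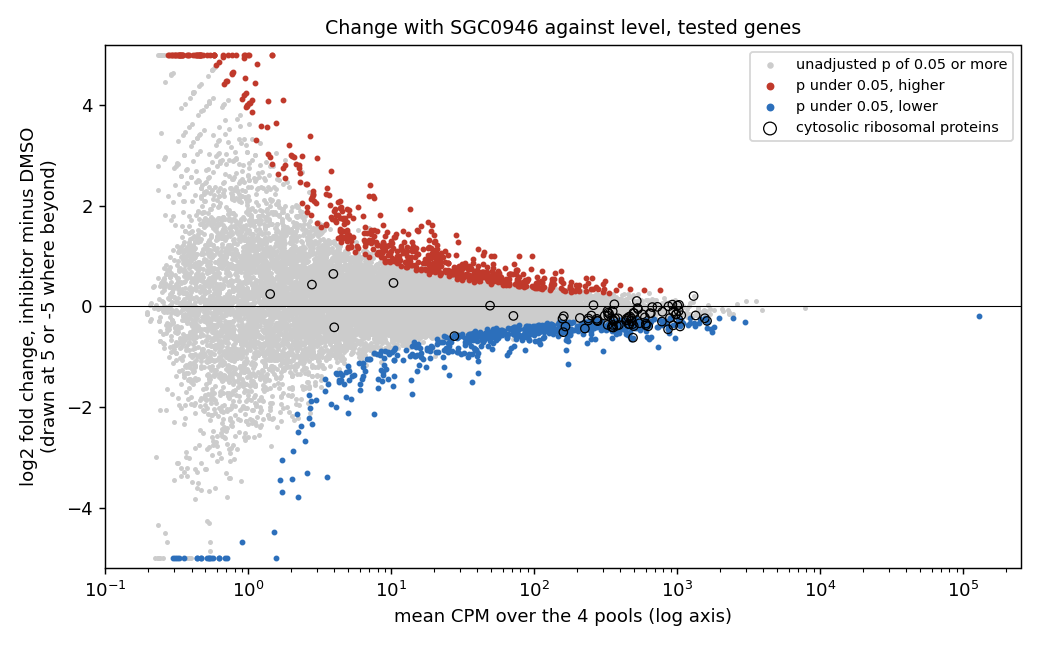
Log2 fold change (inhibitor minus DMSO) against the mean CPM over the 4 pools (log axis), 1 point per tested gene, with red and blue for genes at an unadjusted p under 0.05 and open circles for cytosolic ribosomal proteins. The 581 lower genes sit mostly at high levels, with a median of 91.8 CPM, and the 588 higher genes at a median of 18.2 CPM.

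Targets and effectors of p53, the transcription factor that responds to DNA damage and other stress, were mostly higher with the inhibitor. Of 29 tested genes of the p53 list, 12 were higher at an unadjusted p under 0.05 and 0 were lower, against 4.1% and 4.05% of all tested genes. The inhibitor pools lay above the DMSO pools for 14 members, against 20.1% of all tested genes (39.2% in either direction), and the median log2 fold change was 0.30, against 0.01 over all tested genes. Without inhibitor replicate 1 the count was 11 higher and 0 lower with a median of 0.43, and without inhibitor replicate 2 it was 8 higher and 2 lower with 0.22. Without DMSO replicate 1 it was 6 higher and 0 lower.

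Promoters of 3 higher members are shown because each holds a match to the decamer that makes up a p53 response element when paired, marked by capitals. They are the 250 bases upstream of the RefSeq start (GRCm38.p6), 5′ to 3′ on the gene's strand, at chr10:117710759-117711008 (minus strand) for Mdm2, chr17:29090729-29090978 (plus strand) for Cdkn1a and chr11:40755287-40755536 (minus strand) for Ccng1.
Mdm2: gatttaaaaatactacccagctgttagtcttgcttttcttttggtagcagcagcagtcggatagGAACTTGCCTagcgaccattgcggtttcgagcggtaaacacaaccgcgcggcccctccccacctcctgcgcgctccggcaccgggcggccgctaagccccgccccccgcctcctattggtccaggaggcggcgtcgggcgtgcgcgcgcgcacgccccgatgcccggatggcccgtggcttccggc
Cdkn1a: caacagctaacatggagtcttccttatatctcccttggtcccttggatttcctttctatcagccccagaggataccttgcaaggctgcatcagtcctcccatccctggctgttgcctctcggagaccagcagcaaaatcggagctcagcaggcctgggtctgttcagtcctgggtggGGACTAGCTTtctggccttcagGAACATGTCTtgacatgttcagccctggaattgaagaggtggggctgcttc
Ccng1: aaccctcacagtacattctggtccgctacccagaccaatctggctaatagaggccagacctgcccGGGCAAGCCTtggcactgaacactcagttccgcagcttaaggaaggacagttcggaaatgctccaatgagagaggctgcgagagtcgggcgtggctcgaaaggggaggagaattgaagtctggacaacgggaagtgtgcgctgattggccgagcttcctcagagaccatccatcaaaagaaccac
The match begins 186 bases upstream of the start in Mdm2 and 185 in Ccng1, and the Cdkn1a promoter holds 2 matches, at 73 and 51 bases. Both strands were searched, from 250 bases before to 50 after each start. A match was found for 10 of the 21 list members with a promoter in the table and for 9.55% of 27025 genes. Of the 9 members at an unadjusted p under 0.05 with a promoter, 5 held a match. The members with a match also included Trp53 and Bax, whose pools overlapped between groups. A match describes letters and not binding.

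Among effectors of cell cycle arrest, Cdkn1a, the CDK inhibitor p21, was at 49.5 and 56.6 CPM with DMSO and 79.8 and 86.1 CPM with the inhibitor. The groups did not overlap and the log2 fold change was 0.64 (SE 0.18). Ccng1, cyclin G1, was at 34.2 and 60.2 CPM with DMSO and at 64.8 and 76.1 CPM with the inhibitor, so its DMSO pools were further apart than the group means. Plk2, a polo-like kinase, had a log2 fold change of 0.65 (SE 0.22) and Btg2, an antiproliferative factor, 1.16 (SE 0.49), although Btg2 was high in inhibitor replicate 1 alone, at 17.7 CPM against 6.91 in replicate 2.

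Mdm2, the ubiquitin ligase that degrades p53 and is itself a p53 target, was at 98.2 and 91.4 CPM with DMSO and at 137 and 129 CPM with the inhibitor (log2 fold change 0.49, SE 0.16). Trp53inp1, a p53-induced nuclear protein, was at 68.7 and 74.2 CPM with DMSO and at 120 and 118 CPM with the inhibitor. Its log2 fold change was 0.74 (SE 0.16), and DESeq2 called it with an adjusted p of 0.00331. Polk, a translesion DNA polymerase, had a log2 fold change of 0.99 (SE 0.30). Trp53 itself, at 28.1 and 19.8 CPM with DMSO and 15.0 and 20.1 CPM with the inhibitor, overlapped between groups (−0.45, SE 0.31). Bax, a pore-forming member of the BCL2 family, was at 42.7 and 43.0 CPM with DMSO and at 41.9 and 47.8 CPM with the inhibitor.

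Within the BCL2 family, which sets the threshold for mitochondrial apoptosis, 3 of 13 tested members were higher and 1 was lower at an unadjusted p under 0.05, against 4.1 and 4.05% of all tested genes. Leaving out 1 pool gave 2 and 0, or 1 and 1 without DMSO replicate 2. The higher members were the BH3-only genes Pmaip1, Bcl2l11 (BIM) and Bbc3 (PUMA). Bcl2l11 was at 22.8 and 14.5 CPM with DMSO and at 49.4 and 26.1 CPM with the inhibitor (log2 fold change 1.02, SE 0.33), and was 0.49 without inhibitor replicate 1. Bbc3 was at 10.7 and 9.12 CPM with DMSO and at 14.1 and 20.9 CPM with the inhibitor (0.82, SE 0.35). The lower member was Bcl2l1, the survival factor BCL-XL, at 50.8 and 34.3 CPM with DMSO and 28.6 and 29.8 CPM with the inhibitor (−0.54, SE 0.25).

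Genes of naive pluripotency, the transcription factors and markers shared by the inner cell mass and embryonic stem cells, were lower with the inhibitor. Of 21 tested members 0 were higher and 10 were lower at an unadjusted p under 0.05, against 4.05% of all tested genes lower. The list is highly expressed, with a median mean level of 248 CPM, and in the highest of the 5 level groups 11.4% of genes were lower. The part of level in this difference was not tested. The inhibitor pools lay below the DMSO pools for 12 members, against 19.2% of all tested genes, and the median log2 fold change was −0.25. The difference was larger in 1 pool: all 21 members were below their DMSO mean in inhibitor replicate 1, with a median log2 ratio of −0.46, and 14 of 21 in inhibitor replicate 2, with −0.12. Without inhibitor replicate 1, 7 members were lower and 1 was higher, and the median was −0.12. Without inhibitor replicate 2, 14 were lower and the median was −0.46.

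The core regulator Pou5f1 (OCT4) was at 700 and 716 CPM with DMSO and at 458 and 547 CPM with the inhibitor (log2 fold change −0.49, SE 0.12). Esrrb, an orphan nuclear receptor that sustains naive pluripotency, was at 315 and 289 CPM with DMSO and at 184 and 204 CPM with the inhibitor (−0.64, SE 0.13). For Pou5f1, Esrrb and Tfcp2l1 the groups did not overlap and DESeq2 made a call. Tdgf1, the Nodal co-receptor CRIPTO, had a log2 fold change of −0.97 (SE 0.24), and Fgf4, the growth factor that later instructs primitive endoderm, −0.70 (SE 0.25). Tbx3 and Sall4, transcription factors of the same network, had −0.39 (SE 0.12) and −0.40 (SE 0.12).

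Other members differed less or in 1 pool only. Nanog was at 32.3 and 33.4 CPM with DMSO, 14.6 CPM in inhibitor replicate 1 and 30.3 CPM in inhibitor replicate 2, so the inhibitor pools were both below the DMSO pools but replicate 2 only slightly (log2 fold change −0.55, SE 0.32). Klf17 was at 278 and 243 CPM with DMSO and at 191 and 360 CPM with the inhibitor, the inhibitor pools falling on either side of the DMSO pools. Klf2, at 254 and 195 CPM with DMSO and 195 and 247 CPM with the inhibitor, overlapped completely.

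**Figure D3:**
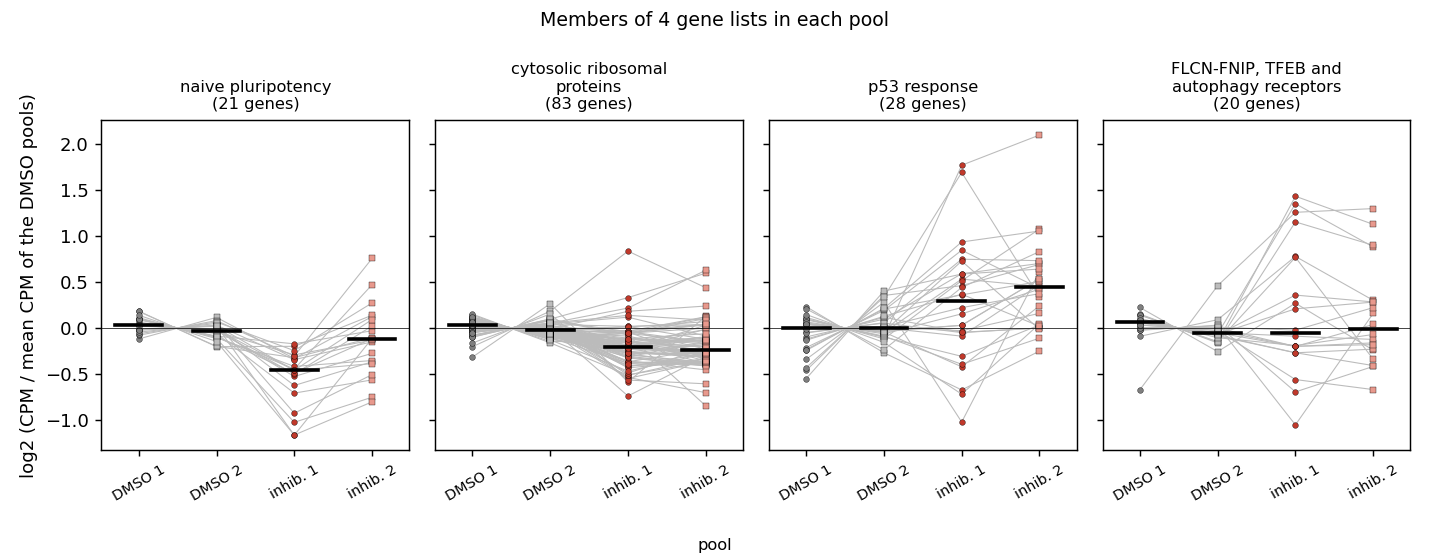
Log2 ratio of each listed gene's CPM to its mean over the DMSO pools, by pool, with grey lines joining the pools of a gene, points for genes of at least 1 CPM in every pool and black bars for medians. The naive pluripotency median is −0.46 in inhibitor replicate 1 and −0.12 in inhibitor replicate 2, whereas the ribosomal protein medians are −0.21 and −0.25 and the p53 medians 0.29 and 0.44.

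Cytosolic ribosomal protein genes were lower by a similar small amount in both inhibitor pools. Of 84 tested, 0 were higher and 32 were lower at an unadjusted p under 0.05, against 4.1 and 4.05% of all tested genes. The inhibitor pools lay below the DMSO pools for 58 and above for 5, against 19.2 and 20.1% of all tested genes, and the median log2 fold change was −0.23. Their summed level was 48037 and 45693 CPM with DMSO and 40615 and 41230 CPM with the inhibitor. The count of lower members was 34 without inhibitor replicate 1, 29 without inhibitor replicate 2, 20 without DMSO replicate 2 and 8 without DMSO replicate 1. These genes are highly expressed and short, with a median mean level of 459 CPM and a median span of 3179 bases. In the highest of the 5 level groups without ribosomal proteins, 10.6% of 2781 genes were lower and the median was −0.07, and among the shortest of those, the lowest of 5 groups by span, 15.7% of 496 genes were lower with a median of −0.11. The part of level and length in the ribosomal protein difference was not tested.

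Rpl10, a component of the large subunit, was at 593 and 594 CPM with DMSO and at 408 and 364 CPM with the inhibitor (log2 fold change −0.62, SE 0.12). It was the ribosomal protein gene with the lowest p, and the only one also called by edgeR without inhibitor replicate 1. Rpl3 was at 1015 and 976 CPM with DMSO and at 679 and 775 CPM with the inhibitor (−0.45, SE 0.11), Rpl7 had −0.40 (SE 0.10) and Rps3 −0.38 (SE 0.10). Rplp1, an acidic stalk protein, went the other way, at 1217 and 1196 CPM with DMSO and at 1365.5 and 1421 CPM with the inhibitor (0.21, SE 0.10). Ribosomal protein genes have many near-identical processed copies, so single values are uncertain where the counting could split reads between them.

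Transcripts of many ribosomal protein genes begin in a run of pyrimidines. The bases around the start of 4 lower members are shown for this reason, as 28 bases from 12 before the RefSeq start (GRCm38.p6). The first 12 bases lie before the annotated transcript, and a marked run can begin there, as in Rpl31. Capitals mark the first run of at least 6 pyrimidines inside a window around the start. The capitals stop at the window's edge where the run goes on. The 4 stretches lie at chr7:45718059-45718086 (plus strand), chr1:39367839-39367866 (plus strand), chr7:109519183-109519210 (plus strand) and chr17:33955650-33955677 (minus strand), in the order shown.
Rpl18: gtctcgcaggccgCTCTTTCcccgccca
Rpl31: cctcctcgCCTCCCCgtgacccggaagt
Rpl27a: ttcgtgagCTCCTCCCTTTTccctttct
Rps18: gtcacttccgCTCTCTCTTCcacaggag
Such a run, searched on the gene's strand in a window from 5 bases before to 8 after the start, was present for 23 of 63 ribosomal protein genes in the table (36.5%) and for 12.1% of all genes. The log2 fold changes of these 4 genes were −0.39, −0.37, −0.35 and −0.42.

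Genes of the lysosomal nutrient-sensing pathway moved in both directions. FLCN with FNIP1 or FNIP2 activates the Rag GTPases RagC and RagD at the lysosome, and so directs mTORC1 to keep TFEB and TFE3 out of the nucleus. The list was chosen with earlier results known and holds Fnip1, Fnip2 and Calcoco2, which are among the genes with the lowest p. Of 21 tested members of the list, 6 were higher and 3 were lower at an unadjusted p under 0.05, against 4.1 and 4.05% of all tested genes, and the median was 0.03. Without DMSO replicate 1 these counts were 3 and 2. Without inhibitor replicate 1 they were 4 and 3, and without inhibitor replicate 2 they were 7 and 3.

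Fnip2 was at 18.8 and 15.3 CPM with DMSO and at 45.8 and 37.1 CPM with the inhibitor (log2 fold change 1.28, SE 0.26). Fnip1 was at 26.5 and 24.2 CPM with DMSO and at 64.5 and 46.6 CPM with the inhibitor (1.13, SE 0.24). Rragc, which encodes RagC, was at 18.2 and 14.7 CPM with DMSO and at 36.5 and 30.6 CPM with the inhibitor (1.03, SE 0.27). For all 3 genes both inhibitor pools were above both DMSO pools, and inhibitor replicate 1 was the higher of the inhibitor pools. Rragd, the paralogue that encodes RagD, was lower, at 207 and 215 CPM with DMSO and 130 and 157 CPM with the inhibitor (−0.55, SE 0.15). Flcn itself was at 18.5 and 13.2 CPM with DMSO and at 19.1 and 13.4 CPM with the inhibitor.

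Of the transcription factors below, Tfe3 had a log2 fold change of 0.56 (SE 0.25). Tfeb was at 73.2 and 75.5 CPM with DMSO, at 35.8 CPM in inhibitor replicate 1 and at 82.8 CPM in inhibitor replicate 2, so the inhibitor pools disagreed. Of the autophagy receptors, Calcoco2 (NDP52) was at 1192 and 1144 CPM with DMSO and at 790 and 733 CPM with the inhibitor (−0.62, SE 0.11), whereas Sqstm1 (p62) had 0.32 (SE 0.14). Calcoco2 overlaps Ttll6 in the RefSeq annotation, and the strand setting of the counting is not given in the sources used here. The same limit holds for other genes named above, among them Grin1 (which overlaps Grin1os and Lrrc26), Zan (Rpl36-ps9), Rpl10 (Snora70) and Bcor (Gm46687). Pmaip1, Socs3 and Jarid2 overlap no other annotated gene.

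The promoters of Fnip1 (chr11:54437929-54438178, plus strand) and Rragc (chr4:123917183-123917432, plus strand) are shown because both hold the E-box CACGTG, in capitals, the core of the sequence that TFEB and TFE3 recognise.
Fnip1: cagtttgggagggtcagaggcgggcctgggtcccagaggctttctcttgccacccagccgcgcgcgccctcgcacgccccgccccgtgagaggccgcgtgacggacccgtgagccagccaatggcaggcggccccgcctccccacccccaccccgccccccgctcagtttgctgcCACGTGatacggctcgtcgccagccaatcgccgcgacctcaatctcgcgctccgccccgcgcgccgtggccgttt
Rragc: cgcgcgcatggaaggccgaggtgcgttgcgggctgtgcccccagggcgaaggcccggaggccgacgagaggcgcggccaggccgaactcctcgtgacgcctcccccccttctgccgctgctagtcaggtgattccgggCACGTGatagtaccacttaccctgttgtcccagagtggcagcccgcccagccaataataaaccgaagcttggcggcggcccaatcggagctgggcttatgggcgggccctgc
The E-box begins 75 bases upstream of the start used in Fnip1 and 112 in Rragc. The annotated Fnip1 gene begins at 54438107, within the stretch shown, so the start used lies inside it. The E-box was found for these 2 of 19 list members with a promoter and for 8.09% of all genes, with the same window and both strands. The share among members was thus near that of all genes.

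In the LIF and STAT3 pathway, which maintains naive pluripotency through the kinase JAK1 and the transcription factor STAT3, 2 of 23 tested members were higher and 3 were lower at an unadjusted p under 0.05, against 4.1 and 4.05% of all tested genes. The lower members were Socs3, Pim1 and Cish. Other members that STAT factors can induce did not share the direction: Junb had a log2 fold change of 1.00, Bcl3 0.26, Pim3 0.07 and Socs1 −0.09. Socs3, the feedback inhibitor of JAK kinases, was at 255 and 214 CPM with DMSO and at 79.2 and 134 CPM with the inhibitor (log2 fold change −1.14, SE 0.21). Pim1, a serine/threonine kinase, had −0.50 (SE 0.16) and Cish, another feedback inhibitor, −0.70 (SE 0.32). Jak1 was higher (0.51, SE 0.22), and Stat3, at 20.6 and 24.95 CPM with DMSO and 38.7 and 23.8 CPM with the inhibitor, overlapped between groups. The Socs3 promoter stretch (chr11:117969367-117969616, minus strand) lies inside the annotated gene, which spans 117966079 to 117970336 and so also reaches further upstream. It holds a match to the STAT site TTCNNNGAA, shown in capitals, that begins 154 bases upstream of the start used.
Socs3: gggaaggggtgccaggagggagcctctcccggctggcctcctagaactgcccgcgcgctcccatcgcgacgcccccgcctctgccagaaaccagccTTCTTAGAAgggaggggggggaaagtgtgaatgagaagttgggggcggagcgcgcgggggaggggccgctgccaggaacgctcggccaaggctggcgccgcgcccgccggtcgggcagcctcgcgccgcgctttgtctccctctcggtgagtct
Among 21 list members with a promoter, Socs3 and Cish held this motif, as did 9.55% of all genes, so the share among members was near that of all genes.

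Dot1l, the target of the drug, was at 278 and 256 CPM with DMSO and at 221 and 214 CPM with the inhibitor. The groups did not overlap, but edgeR gave an adjusted p of 0.582 for a log2 fold change of −0.29 (SE 0.13). A transcript level does not measure the inhibited activity, and no measurement of the histone mark in embryos was used here. Of the 7 genes of the Dot1L complex, Dot1l was the only one at an unadjusted p under 0.05. Of 24 transcription elongation genes, 1 was higher and 4 were lower, against 4.1 and 4.05% of all tested genes. The higher member was Eaf2, with 5 and 1 counts in the DMSO pools and 81 and 24 in the inhibitor pools. Eaf2 passed the filter only through the inhibitor pools, so it does not compare the groups. With at least 10 counts required in every library it was not tested, and 0 members were higher. No member was lower without inhibitor replicate 1 or without DMSO replicate 1 (0 in each). The lower members included Cdk9, the kinase of the elongation factor P-TEFb (−0.41, SE 0.18), and Nelfcd, a subunit of the pausing factor NELF (−0.36, SE 0.15).

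Among the methyltransferases of histone H3 lysines 4, 27 and 36 and their partners, 2 of 30 were higher and 3 were lower, against 4.1 and 4.05% of all tested genes. The inhibitor pools lay below the DMSO pools for 12, against 19.2%, and the higher count was 0 without inhibitor replicate 1. The lower members were Jarid2, Wdr5, a core subunit of the lysine 4 complexes (−0.41, SE 0.13), and Setd2, the enzyme that trimethylates lysine 36 (−0.32, SE 0.11). The catalytic subunit Ezh2, at 252 and 254 CPM with DMSO and 222 and 261 CPM with the inhibitor, overlapped between groups. In Nodal, BMP and FGF signalling 0 of 26 were higher and 5 were lower, against 4.1 and 4.05% of all tested genes, and without DMSO replicate 2 the counts were 1 and 2. The lower members included Tdgf1 and Fgf4, already given with naive pluripotency, so the lists are not separate results. Id3, a BMP target (−1.36, SE 0.33), and Fgfr2, an FGF receptor (−0.43, SE 0.17), were also lower. Fgfr2 is in the trophectoderm and primitive endoderm lists as well.

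Lists of lineage and stage showed few differences beside the 4.1% of all tested genes that were higher and the 4.05% that were lower. Of 19 trophectoderm genes 0 were higher and 1 was lower, of 15 primitive endoderm genes 0 and 1, of 20 genes of the 2-cell stage 1 and 0, and of 33 oocyte and maternal effect genes 0 and 0. Of 14 DNA methylation genes, 0 were higher and 0 were lower. In compaction and polarity, 1 of 25 was higher and 2 were lower: the atypical protein kinase C gene Prkcz was at 50.9 and 54.8 CPM with DMSO and 26.3 and 29.4 CPM with the inhibitor (−0.93, SE 0.22), and the nonmuscle myosins Myh10 and Myh9 had −0.49 (SE 0.13) and 0.42 (SE 0.13). In the Hippo pathway, Ctgf, a YAP target, was at 2.98 and 2.37 CPM with DMSO, 21.5 CPM in inhibitor replicate 1 and 3.07 CPM in inhibitor replicate 2, and its log2 fold change of 2.19 (SE 0.69) was 0.20 without inhibitor replicate 1. Among 20 heat shock genes and chaperones 4 were higher and 1 was lower, against 4.1 and 4.05% of all tested genes. This balance turned with the pools, to 6 and 0 without inhibitor replicate 1 and to 1 and 5 without inhibitor replicate 2. Hsp90b1, the chaperone of the endoplasmic reticulum, was at 101 and 114 CPM with DMSO and at 181 and 160 CPM with the inhibitor (0.67, SE 0.15).

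**Figure D4:**
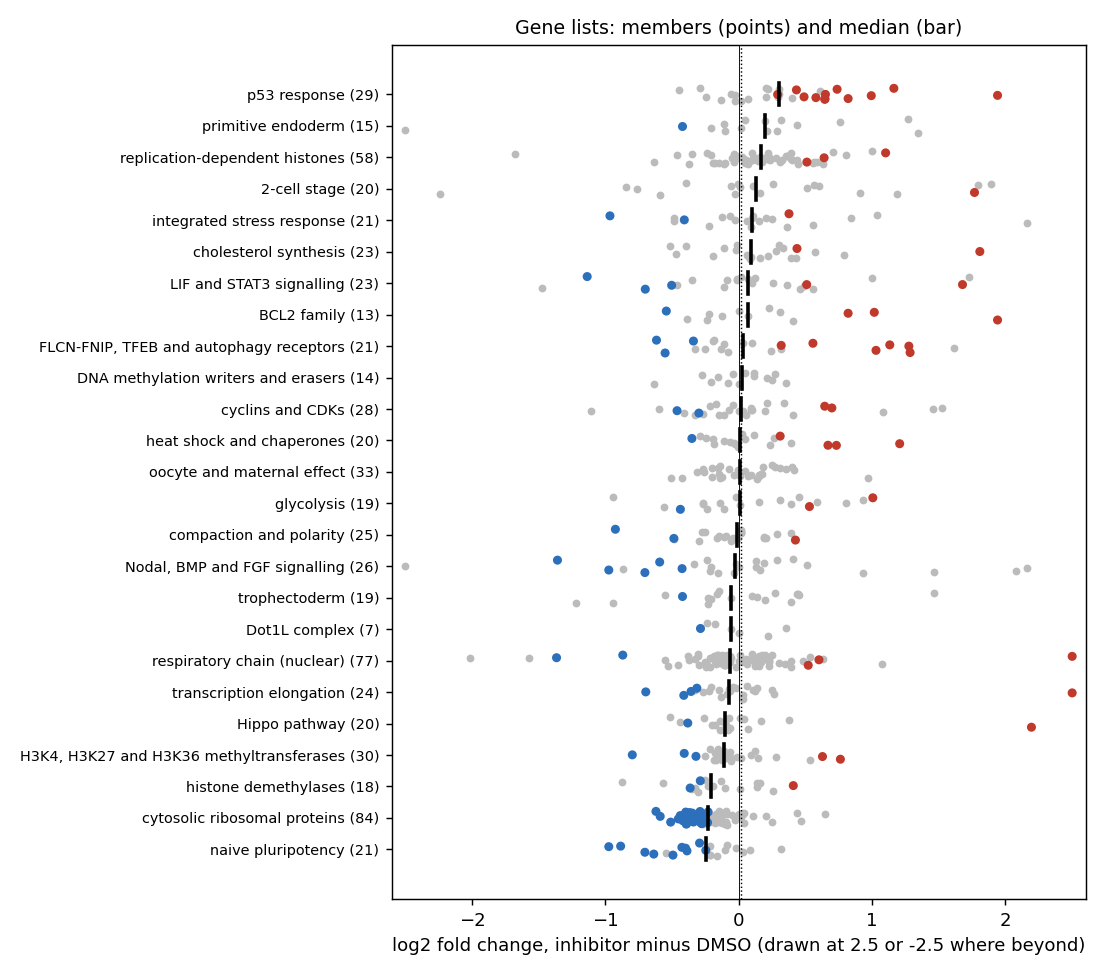
Log2 fold change (inhibitor minus DMSO) of the tested members of each gene list, with the number of tested members in brackets, coloured points for members at an unadjusted p under 0.05 (red higher, blue lower), black bars for list medians and a dotted line for the median of all tested genes. The p53 median is 0.30, and the medians of naive pluripotency and cytosolic ribosomal proteins are −0.25 and −0.23.

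The series also holds RNA from v6.5 mouse embryonic stem cells (mESCs) with a Dot1L knockout (KO, 2 samples) and wild type (3 samples), which share no sample with the embryos. Across the 13037 genes in both tables the log2 fold changes had a Spearman correlation of 0.04, a description across genes, which are not independent replicates. Genes that rose in the KO (3410 in both tables) had a median log2 fold change of 0.03 in embryos, with 158 higher (4.63%) and 126 lower (3.70%) at an unadjusted p under 0.05. Genes that fell in the KO (3282) had −0.01, with 156 higher (4.75%) and 198 lower (6.03%). Of all genes in both tables, 4.27% were higher and 4.27% were lower. These sets differed in embryo level. The median mean level was 33.3 CPM for genes that fell in the KO and 7.12 CPM for those that rose. Over all shared genes it was 14.4 CPM. Lower genes were more frequent at high levels, as described above, and how far level accounts for the shares of the KO sets was not tested.

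Cytosolic ribosomal proteins fell in the KO for 51 of 84 and rose for 1, against 21.6% and 22.3% of 19532 genes (43.9% in all) in edgeR at an adjusted p under 0.05. Of naive pluripotency genes 14 fell and 3 rose, and of p53 genes 9 rose and 8 fell. Single genes differed more between the experiments. Calcoco2 had a log2 fold change of −1.90 in the KO and −0.62 in embryos, Rpl10 had −0.92 and −0.62, and Rragd had −0.97 and −0.55. Socs3 had 1.08 in the KO and −1.14 in embryos, Tfcp2l1 0.46 and −0.89, and Bcor −1.12 and 1.01. Fnip1, Fnip2 and Rragc had 0.05, 0.12 and −0.01 in the KO. The differences between the experiments were not tested.

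**Figure D5:**
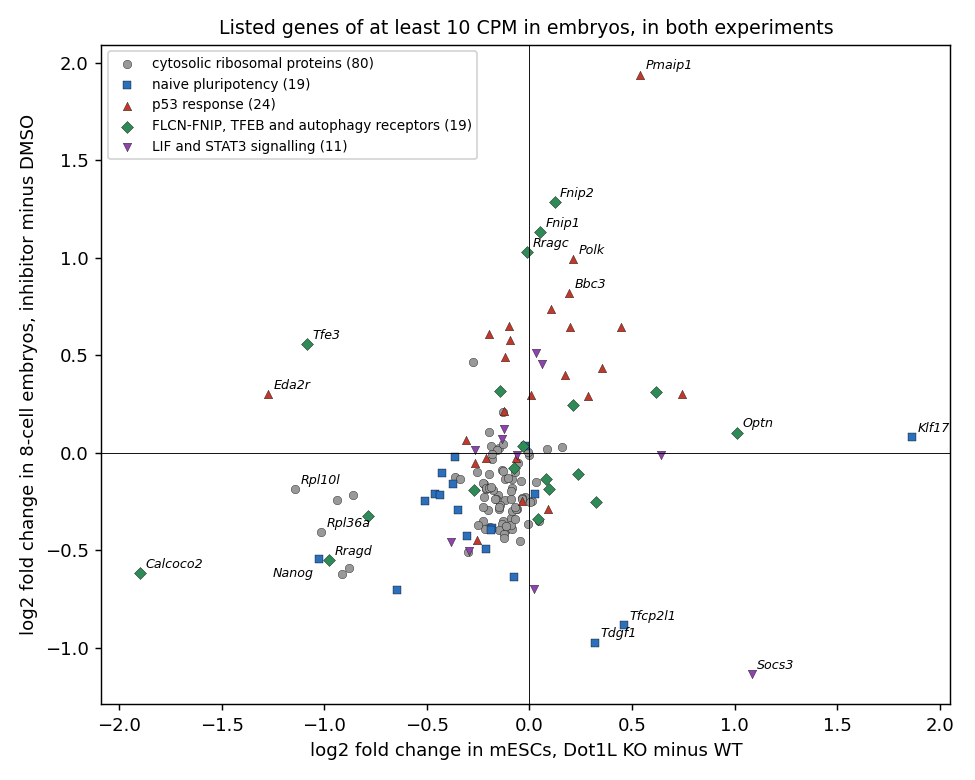
Log2 fold change in embryos (inhibitor minus DMSO) against that in mESCs (KO minus WT) for listed genes whose mean level in embryos reached 10 CPM, coloured by list. Of 80 ribosomal protein genes drawn 66 are below 0 on both axes, and Socs3 and Tfcp2l1 lie at the lower right.

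Genes with an H3K79me2 peak in wild-type mESCs, in both peak lists, had a median log2 fold change of 0.00 in embryos (7766 genes, 4.39% higher and 5.10% lower at an unadjusted p under 0.05). Unmarked genes had 0.05 (6521 genes, 3.76% and 2.76%). Marked genes were more highly expressed in the embryo, with a median of 35.8 CPM in DMSO against 2.51 CPM. Within each of 5 groups by DMSO level, unmarked genes had the larger share of lower genes. From the lowest to the highest group the shares were 0.234, 0.579, 1.67, 3.70 and 10.8% of marked genes and 0.658, 0.903, 3.38, 7.68 and 22.1% of unmarked genes, with 2591 marked and 267 unmarked genes in the highest. In that group, with groups by the mean of all 4 pools, it was 10.4% of 2598 and 21.2% of 260. The mark was measured in another cell type, and its level in these embryos was not analysed here.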

How the data were processed

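RNA-seq libraries from 4 pools of 8-cell embryos were made with the SMARTer Stranded Total RNA-seq kit v3, per the labels' protocols. The authors deposited whole-number read counts per gene symbol; STAR, HTSeq and mm10 are named, per the submitters' processing notes, while versions, annotation and strand setting are not given in the sources used here. The authors deposited estimated counts per Ensembl gene for the mESCs (kallisto, mm10, per the submitters' processing notes), which were rounded before testing. Peak lists deposited by the authors (Bowtie2, MACS2, mm10, per the submitters' processing notes) carry a fold enrichment ratio per peak, and only peak positions were used.

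Counts were scaled by TMM and tested with edgeR 4.0.16 (quasi-likelihood, filterByExpr, no replicate block, Benjamini-Hochberg adjustment), with DESeq2 1.42.0, limma-voom (limma 3.58.1), other scalings and filters, a replicate block and leaving out each pool as alternatives. CPM are TMM-scaled. The tests were tried on simulated data with changes larger than most given here, so the trial does not show how smaller changes are recovered. With 2 pools per group, precision was limited by the spread between pools (common biological coefficient of variation 0.442) and not by depth. The labels do not say whether replicate numbers pair the pools. Across tested genes, the deviations of replicate 1 from its group mean had a correlation of 0.05 between DMSO and inhibitor. This value cannot show whether a replicate number marks a shared day or litter.

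The members and gene lists were chosen with earlier results of these data known. Named genes were Dot1l, in each direction the 8 with the lowest p (mean CPM of at least 1, groups not overlapping), the 5 with the largest change at an unadjusted p under 0.05 (mean CPM of at least 5, groups not overlapping) and the 5 with the lowest DESeq2 adjusted p, and up to 4 genes of each list with the lowest p. Genes named outside this rule, such as further list members, were chosen after their values were seen. From this selection 2 genes are not reported here. Symbols matched RefSeq for 23922 of 24062 genes.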

Additional observations from a re-analysis of the deposited data

How the results depend on the processing

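The count of genes called at an adjusted p under 0.05 was the result most dependent on the processing. It was 0 with edgeR, also with DESeq2's size factors and with upper-quartile scaling, but 125 with DESeq2, 55 with limma-voom, 111 with no filter on low counts and 23 with at least 10 counts in every library; the cause was not tested. With the replicate block it was 171, although the labels do not say that replicate numbers pair the pools. Leaving out 1 pool gave 0 to 144 called genes, the highest without inhibitor replicate 2 and 4 without inhibitor replicate 1. Genes higher at an unadjusted p under 0.05 ranged from 264 (without inhibitor replicate 1) to 824 (without inhibitor replicate 2), and lower genes from 328 (without DMSO replicate 1) to 1050 (without inhibitor replicate 2). Leaving out 1 pool in turn reversed the sign of the log2 fold change for these genes, given with their lowest and highest values. A DMSO pool did so for Tead2 −1.02 to 0.28, Eomes −1.54 to 0.11, Tdpoz3 −1.38 to 0.35, Tle6 −0.91 to 0.31, Gapdhs −0.23 to 1.17 and Uty −0.064 to 1.69. An inhibitor pool did so for Star −0.19 to 0.84, Ovgp1 −0.36 to 2.82, Xist −0.53 to 0.023 and Usp9y −0.089 to 0.60, and either kind for Krt7 −0.33 to 0.49 (−0.13 without DMSO replicate 1, −0.33 without inhibitor replicate 1). With 1 pool left in a group, that pool is assumed to vary like the other group.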

Other observations

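Some further genes outside the lists differed by large factors at low levels. Det1, a subunit of a ubiquitin ligase complex, was at 16.7 and 7.76 CPM with DMSO and at 1.94 and 3.62 CPM with the inhibitor (log2 fold change −2.13, SE 0.52). Tat, tyrosine aminotransferase, was at 21.3 and 21.7 CPM with DMSO and at 2.48 and 10.3 CPM with the inhibitor (−1.75, SE 0.50), and the hedgehog effector Gli1 had −1.84 (SE 0.58). Emp2, an epithelial membrane protein, was at 1.40 and 3.32 CPM with DMSO and at 11.2 and 7.27 CPM with the inhibitor (1.97, SE 0.56). Alppl2, an alkaline phosphatase of the early embryo, was abundant and lower, at 2133 and 1984 CPM with DMSO and 1415 and 1497 CPM with the inhibitor (−0.50, SE 0.10). The main edgeR fit called none of these genes, while DESeq2 and limma-voom called Alppl2, with adjusted p-values of 0.00136 and 0.000878. With the replicate block, edgeR called Det1, Tat, Emp2 and Alppl2.

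Of 58 tested replication-dependent histone genes 3 were higher and 0 were lower at an unadjusted p under 0.05, against 4.1 and 4.05% of all tested genes, and the median log2 fold change was 0.16. Without DMSO replicate 1 the counts were 1 and 2 and the median −0.08, and without DMSO replicate 2 they were 12 and 0 with 0.51, so the direction rested on DMSO replicate 1. Hist2h2bb was at 90.0 and 93.7 CPM with DMSO and at 124 and 138 CPM with the inhibitor (0.51, SE 0.16). Of 77 nuclear genes of the respiratory chain 3 were higher and 2 were lower, shares near those of all tested genes. Among the 3 was Cox8c, with 0 counts in both DMSO pools and 10 and 26 in the inhibitor pools. Cox8c passed the filter only through the inhibitor pools, so it does not compare the groups. In the integrated stress response 1 of 21 was higher and 2 were lower, and the serine synthesis enzyme Psat1 was at 523 and 560 CPM with DMSO and at 387 and 428 CPM with the inhibitor (−0.41, SE 0.12).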
